A study of Mus musculus with 8 samples.

Results

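Collagen chain genes encode the polypeptides that fold in threes into collagen, the main structural protein of extracellular matrix. They were taken here as every gene whose symbol is Col, a type number, the letter a and a chain number, and 44 of the 22180 genes measured in mouse liver met that rule. Of these, 11 encode fibrillar collagens (types I, II, III, V, XI, XXIV and XXVII), 8 encode collagens of basement membranes (types IV, XV and XVIII) and 25 encode all other types. Each gene is represented by the array row that names it alone and has the highest mean over all 8 arrays.

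Fibrillar collagens assemble into the banded fibres that thicken in a scarring liver, with type I and type III as the bulk of that scar. Type IV forms the sheet-like network of basement membranes, and types XV and XVIII are proteoglycans attached to such membranes. In liver most interstitial collagen is made by hepatic stellate cells, which store vitamin A at rest and become myofibroblasts when activated, and by fibroblasts around the portal vein.

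Liver RNA of 8 mice was measured on Affymetrix Mouse Gene 2.0 ST arrays, 4 from wild-type mice and 4 from mice labelled IL-10 knockout, that is, without interleukin-10, an anti-inflammatory cytokine. All 8 mice are labelled C57BL/6, female and 6 weeks old, and all drank 3% dextran sulfate sodium (DSS), which injures the lining of the colon, for 7 days. No mice without DSS were part of the comparison, so it asks how collagen transcripts in the liver differ between the genotypes when both have colitis; the knockout allele is not named in the labels. Values are log2 levels from robust multi-array averaging (RMA), differences are knockout-labelled minus wild-type, and ± gives the SD of a group's arrays (n = 4).

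The targeted gene did not check the labels. Il10 had values of 4.95, 5.08, 4.90 and 4.95 in the 4 wild-type arrays, in order of replicate number as throughout, and of 5.79, 5.69, 6.00 and 6.41 in those labelled knockout, a difference of 1.00 upward (SE 0.14; limma adjusted p = 0.00851). Every direction below therefore rests on the labels, and the place of the probes relative to the knocked-out part was not tested. Although all mice are labelled female, replicates 1 and 2 of each group had Y-linked signal (mean of Kdm5d, Uty and Eif2s3y 8.20 to 8.52, against 4.30 to 4.48 in replicates 3 and 4). Replicates 3 and 4 had signal of Xist, the RNA that silences an X chromosome in females (11.68 to 11.82, against 5.62 to 6.32). Each set holds 2 arrays of each group, so both sets give the genotype difference. The hepatocyte gene Alb read 13.48 to 13.65 in all 8 arrays, close to the highest value in the table, 13.8.

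None of the 44 collagen genes differed between the groups at an adjusted p below 0.05 in limma, the threshold for a call, against 3.15% of all genes. The lowest adjusted p was 0.085, for Col4a1. At an unadjusted p below 0.05, 11 collagen genes were higher in the knockout-labelled arrays (all genes, 11.4%) and 0 were lower (all genes, 9.79%). In 6 genes every knockout-labelled array was above every wild-type array (all genes, 7.2%), and in 0 every one was below (all genes, 5.74%). The differences ran from -0.44 for Col14a1 to 0.48 for Col4a1, and 30 were above 0 and 14 below.

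The medians of the classes were all small. Fibrillar collagens had a median difference of -0.03, with 5 genes above 0 and 6 below, and the sign of that median changed on leaving out any of 4 single arrays. Basement membrane collagens had 0.09, with 5 above and 3 below, and the other collagens 0.12, with 20 above and 5 below. Over all genes the median was 0.03, with 56.0% above 0. These are descriptions over genes, not tests between classes.

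The depth of the comparison bounds what could have been missed in array signal. It does not bound transcripts whose values may lie at background. For 40 of the 44 genes the 95% interval of the difference lay within a 1.5-fold change in either direction (all genes, 87.3%). The other 4 were Col3a1, Col14a1, Col4a1 and Col13a1, a transmembrane collagen. The interval reached below that limit in Col3a1 (-0.59) and Col14a1 (-0.91), and above it in Col4a1 (0.77) and Col13a1 (0.67).

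**Figure D1:**
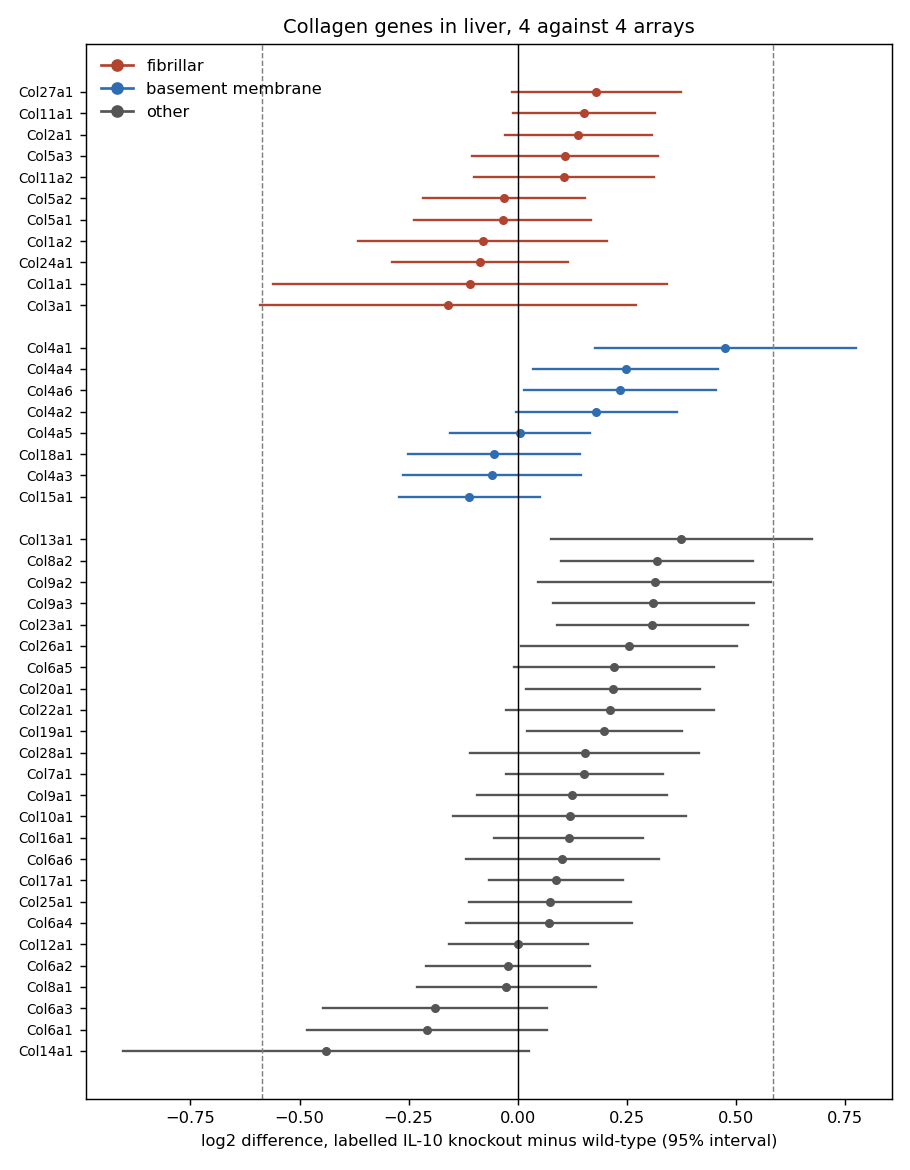
Log2 difference of each of the 44 collagen genes between arrays labelled IL-10 knockout and wild-type arrays (x axis; 4 against 4 arrays), with its 95% interval from limma, by class and ordered by size; dashed lines mark a 1.5-fold change. Col4a1 lies farthest right at 0.48 and Col14a1 farthest left at -0.44, and the intervals of the type I and III genes span 0.

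No collagen gene was called within the Xist or the Y-linked set. The 4 arrays with Xist signal gave 0 called collagen genes (lowest adjusted p 0.163, Col6a5) beside 1.43% of all genes. The 4 arrays with Y-linked signal also gave 0 (lowest 0.383, Col13a1) beside 0.771%. With the set as a block in the fit of all 8 arrays the count was again 0 (lowest 0.0658, Col13a1) beside 4.68%. The genotype difference itself differed between the sets at a limma adjusted p below 0.05 in 0 collagen genes (lowest 0.863), beside 6 of all 22180 genes. At an unadjusted p below 0.05 it did so in 2, Col6a5 and Col6a6, beside 1215 of all 22180. With so few called among all genes, the 0 does not show that the sets agree.

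Many collagen genes had low values on these arrays. The mean of 22 of the 44 was below 6.55, the lowest of the 8 array medians over genes, as was that of 10888 of all 22180 genes. Detection calls were not used here, so which of these values stand above background is not known. Genes of all kinds with a mean of 5 to 6 also lay mostly above 0, 73.3% of them with a median of 0.08, and those of 6 to 7 did so in 68.4% with a median of 0.07. The 9 and 19 collagen genes in these ranges had medians of 0.15 and 0.09. At a mean of 7 to 8 the 13 collagen genes had a median of 0.18, while that of all genes was 0.00 with 49.5% above 0. Above a mean of 8 the 2 collagen genes, Col14a1 and Col18a1, had a median of -0.25, and all genes had -0.04 with 40.9% above 0.

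A single array was the highest in most collagen genes. Knockout-labelled replicate 3 was the highest of the 8 arrays in 26 of the 44 collagen genes and the lowest in 0, and its median over all genes, 6.67, was the highest of the 8. The share of all genes highest in that array was not counted. Without knockout-labelled replicate 3, 28 of the 44 collagen differences were above 0, against 30 with all arrays. The fibrillar, basement membrane and other medians were then -0.08, 0.07 and 0.09, against -0.03, 0.09 and 0.12. Why this array read high was not tested.

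**Figure D2:**
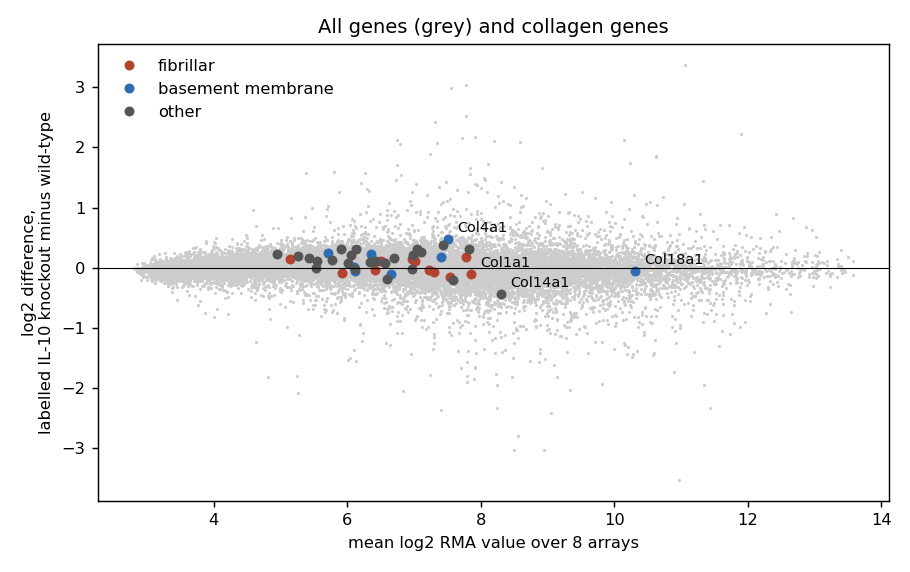
Log2 difference between arrays labelled IL-10 knockout and wild-type arrays (y axis) against the mean log2 RMA value over 8 arrays (x axis), for all 22180 genes in grey and the 44 collagen genes coloured by class. Most collagen genes lie between means of 5 and 8 and within 0.5 of 0, inside the cloud of all genes.

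The fibrillar genes of types I and III are the ones that a scarring liver raises, and neither type differed between the groups beyond the spread of its arrays. Col1a1, the chain present as a pair in each type I molecule, read 7.65, 8.31, 8.17 and 7.49 in the wild-type arrays and 8.14, 7.40, 7.88 and 7.77 in the knockout-labelled ones. Both groups spanned nearly the same range, and the highest and the lowest array were wild-type replicate 2 and knockout-labelled replicate 2. The means were 7.90 ± 0.40 and 7.80 ± 0.31, a difference of -0.11 (95% interval -0.56 to 0.34; limma adjusted p = 0.783).

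Col1a2, the other type I chain, read 7.17, 7.42, 7.53 and 7.25 in the wild-type arrays and 7.51, 6.95, 7.40 and 7.19 in the knockout-labelled ones. The groups overlapped, with knockout-labelled replicate 2 the lowest of all, and the difference was -0.08 (SE 0.13; adjusted p = 0.747). Col3a1, the single chain of type III, read 7.35, 7.82, 7.99 and 7.35 against 7.95, 7.15, 7.46 and 7.29. It was high in wild-type replicates 2 and 3 and in knockout-labelled replicate 1, which were also the 3 highest arrays of Col1a1, and the difference was -0.16 (SE 0.19; adjusted p = 0.657).

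Types I and III moved together from array to array, within the groups as well as over all arrays. Over the 8 arrays Col1a1 correlated with Col3a1 at Pearson r = 0.91 (exact permutation p = 0.0035, adjusted 0.0492 over 25 relations) and Spearman rho = 0.83 (exact permutation p = 0.0154, adjusted 0.128). With Col1a2 it was r = 0.87 (exact permutation p = 0.0059, adjusted 0.0492) and rho = 0.86 (exact permutation p = 0.0107, adjusted 0.128). Without wild-type replicate 2 and knockout-labelled replicate 2, the arrays farthest from the median of Col1a1, r was 0.90 and 0.88. Between deviations from the group means it was 0.91 and 0.87. Of all genes, 0.0316% reached the r of Col3a1 with Col1a1, and 0.0857% that of Col1a2. Such variation was not limited to types I and III. Over 8 arrays r with Col1a1 was 0.81 for Col6a2, 0.76 for Col6a3, 0.75 for Col5a1, 0.72 for Col14a1 and 0.68 for Col6a1. None of these passed after adjustment. Col4a2, Col15a1 and Col4a1 had r of 0.47, 0.37 and 0.19, and Col5a2 and Col18a1 had -0.20 and -0.35. The rank correlations did not pass after adjustment, and within each of the Xist and Y-linked sets 4 arrays were too few for a correlation.

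The stretch before the start of Col1a2 and of Col3a1 is shown because each of these genes varied with Col1a1. Other collagen genes varied with Col1a1 too, at lower r over all arrays. The RefSeq promoters searched do not include Col1a1 itself. The 2 sequences share none of the 3 short promoter motifs searched for. The motifs were CCAAT, the letters of the CCAAT box, TATAAA, a form of the TATA box, and GGGCGG, the core that Sp1-type factors bind. They were searched on both strands in the 250 bases before each start in RefSeq's table for GRCm38.p6, which held 35 of the 44 collagen genes. Both genes lie on the plus strand, sequences run 5′ to 3′, capitals mark the motif matches, and no printed match overlaps another.
Col1a2, chr6:4505368-4505617: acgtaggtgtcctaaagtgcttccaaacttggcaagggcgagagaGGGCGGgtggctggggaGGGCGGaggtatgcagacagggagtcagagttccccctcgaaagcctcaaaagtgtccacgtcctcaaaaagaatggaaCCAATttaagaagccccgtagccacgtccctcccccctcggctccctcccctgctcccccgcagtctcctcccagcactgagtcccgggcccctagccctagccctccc
Col3a1, chr1:45311288-45311537: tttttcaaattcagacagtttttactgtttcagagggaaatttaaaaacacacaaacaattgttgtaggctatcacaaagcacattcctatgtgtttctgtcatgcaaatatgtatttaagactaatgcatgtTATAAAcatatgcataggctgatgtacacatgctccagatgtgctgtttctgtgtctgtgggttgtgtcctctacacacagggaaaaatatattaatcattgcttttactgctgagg
In Col1a2 the CCAAT begins 109 bases before the start and GGGCGG begins 205 and 188 bases before it. In Col3a1 only TATAAA was found, 117 bases before the start. Of the 38 collagen promoter windows, 34.2% held CCAAT, 13.2% TATAAA and 57.9% GGGCGG. The shares over all 32851 windows of that length were 33.8%, 12.4% and 32.7%.

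The type V chains differed by less than the spread of their arrays. Col5a1 encodes a chain of type V, the collagen that starts fibrils and sets their width, and read 7.19, 7.28, 7.31 and 7.19 in the wild-type arrays against 7.37, 7.04, 7.34 and 7.08. Col5a2, the partner chain, read 6.48, 6.46, 6.37 and 6.40 against 6.21, 6.40, 6.56 and 6.42. Both differences were -0.03 (SE 0.09 and 0.08), and the groups overlapped.

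Col27a1 and Col11a1 had the smallest p among the fibrillar genes. Col27a1, a cartilage fibril chain, read 7.61, 7.69, 7.58 and 7.85 against 7.74, 7.81, 8.02 and 7.87, a difference of 0.18 (SE 0.09; adjusted p = 0.269). Col11a1, a type XI chain of cartilage fibrils, read 5.12, 5.02, 5.07 and 5.04 against 5.20, 5.13, 5.37 and 5.15, a difference of 0.15 (SE 0.07; adjusted p = 0.27). Every knockout-labelled array of Col11a1 was above every wild-type array, at low values. Col2a1, Col5a3 and Col11a2 differed by 0.14, 0.11 and 0.11 and Col24a1 by -0.09.

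Type IV holds the gene with the largest difference upward, Col4a1. Its 6 chains pair in fixed sets, with Col4a1 and Col4a2 forming the network of most basement membranes and of the liver's blood vessels. Col4a1 read 7.14, 7.35, 7.24 and 7.37 in the wild-type arrays and 8.07, 7.39, 7.65 and 7.89 in the knockout-labelled ones. Every knockout-labelled array was above every wild-type array, with replicate 2 above by the least. The means were 7.27 ± 0.11 and 7.75 ± 0.30, a difference of 0.48 (SE 0.13; 95% interval 0.18 to 0.77; 1.39-fold; limma adjusted p = 0.085).

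Col4a1 passed the threshold only when 1 array was left out. Without knockout-labelled replicate 2 the difference was 0.60 and the adjusted p was 0.0332, which made Col4a1 the single collagen gene called in any of the 18 alternatives, beside 2.39% of all genes. Leaving out each array in turn gave adjusted p from 0.0332 to 0.204. The difference was 0.47 in the Xist set and 0.48 in the Y-linked set.

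Col4a2, which starts next to Col4a1 and is read in the opposite direction, differed less. It read 7.29, 7.37, 7.35 and 7.23 against 7.59, 7.28, 7.54 and 7.55, with knockout-labelled replicate 2 inside the wild-type range and the other 3 above it. The difference was 0.18 (SE 0.08; adjusted p = 0.247). The log2 ratio of Col4a1 to Col4a2 was -0.15, -0.03, -0.11 and 0.15 in the wild-type arrays and 0.47, 0.11, 0.11 and 0.34 in the knockout-labelled ones. That ratio was compared after its values were seen, and it differed by 0.29 (exact two-sided permutation p = 0.0857, where 0.0286 is the smallest that 70 arrangements allow). The RefSeq promoter windows of these genes, 300 bases each, share 78 bases.

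Among the other type IV chains, Col4a4 had the next smallest p. It read 5.32, 5.66, 5.65 and 5.72 against 5.80, 5.77, 5.94 and 5.83, so the groups did not overlap, and wild-type replicate 1 lay well below the rest. The difference was 0.25 (SE 0.10; adjusted p = 0.175). Col4a6 differed by 0.23 (limma unadjusted p = 0.0397, adjusted 0.212), Col4a3 by -0.06 and Col4a5 by 0.00, none with groups apart. The 6 type IV genes had a median difference of 0.21, and 4 of them had means below the lowest array median.

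**Figure D3:**
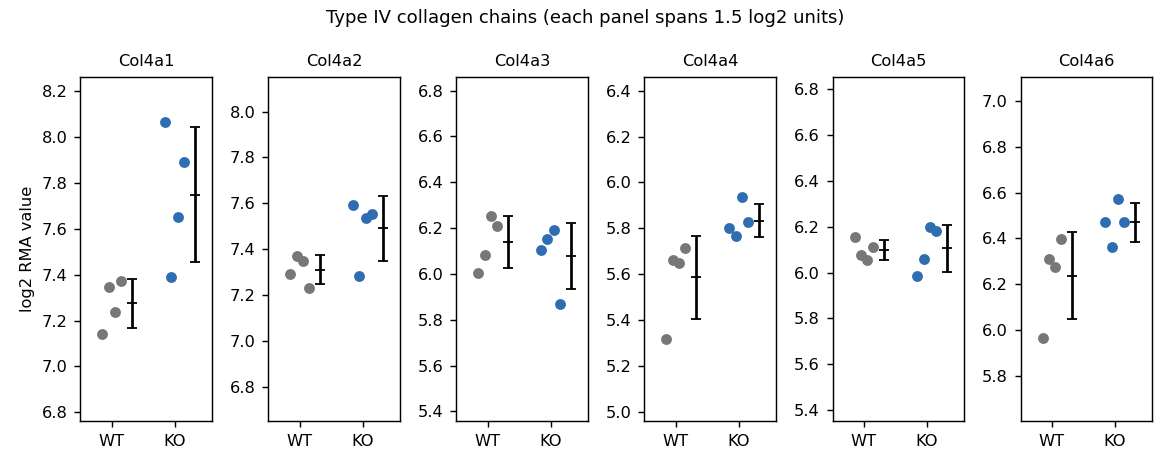
Log2 RMA value (y axis; each panel spans 1.5 log2 units around its own centre) of the type IV chains in wild-type (WT) arrays and arrays labelled IL-10 knockout (KO), 1 point per array, with bars for the mean and SD of 4 arrays. In Col4a1 and Col4a4 every KO array lies above every WT array, and in the other 4 chains the groups overlap.

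The basement membrane proteoglycans were lower in mean by small amounts. Col18a1, the precursor of endostatin and a product of hepatocytes, read 10.45, 10.24, 10.28 and 10.36 in the wild-type arrays and 10.23, 10.32, 10.46 and 10.11 in the knockout-labelled ones. The highest array of the 8 and the lowest were both knockout-labelled, and the difference was -0.05 (SE 0.09; adjusted p = 0.754). Col15a1 read 6.60, 6.74, 6.71 and 6.79 against 6.61, 6.48, 6.62 and 6.67, overlapping groups with a difference of -0.11 (SE 0.07; adjusted p = 0.399).

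Type VI makes beaded filaments between fibrils and cells. Col6a1 read 7.56, 7.72, 7.80 and 7.68 in the wild-type arrays and 7.67, 7.14, 7.71 and 7.40 in the knockout-labelled ones. Knockout-labelled replicates 2 and 4 were below all wild-type arrays and replicates 1 and 3 within them, and the difference was -0.21 (SE 0.12; adjusted p = 0.357). Col6a3 read 6.53, 6.75, 6.89 and 6.62 against 6.66, 6.28, 6.70 and 6.39, with the same 2 arrays lowest and a difference of -0.19 (SE 0.12; adjusted p = 0.369). Col6a2 read 6.93, 7.06, 7.10 and 6.82 against 7.09, 6.94, 6.94 and 6.86, a difference of -0.02. The other type VI chains, Col6a4, Col6a5 and Col6a6, differed by 0.07, 0.22 and 0.10.

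Col14a1 had the largest difference downward. It encodes type XIV, which sits on the surface of fibrils. It read 8.45, 8.46, 8.93 and 8.26 in the wild-type arrays and 8.59, 7.60, 8.25 and 7.89 in the knockout-labelled ones. Knockout-labelled replicate 1 lay within the wild-type range, and the other 3 were below it. The means were 8.52 ± 0.29 and 8.08 ± 0.43, a difference of -0.44 (SE 0.21; 95% interval -0.91 to 0.03; limma adjusted p = 0.26). Without knockout-labelled replicate 1 the adjusted p was 0.0951.

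Among the 25 other collagens, Col8a2 and Col23a1 had the smallest p. Col8a2, a short-chain collagen of the corneal and vascular matrix, read 5.83, 5.70, 5.74 and 5.74 against 6.00, 5.96, 6.37 and 5.94. The groups did not overlap, and knockout-labelled replicate 3 stood above the other 3, with a difference of 0.32 (SE 0.10; adjusted p = 0.109). Col23a1, a transmembrane collagen, read 6.78, 6.96, 6.77 and 7.06 against 7.36, 7.05, 7.29 and 7.10, a difference of 0.31 (SE 0.10; adjusted p = 0.116). Only knockout-labelled replicate 2 fell inside the wild-type range.

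Col4a1, Col4a4, Col4a6, Col8a2 and Col23a1, given above, had an unadjusted p below 0.05 in limma. So did Col9a2 (0.31), Col9a3 (0.31), Col13a1 (0.37), Col19a1 (0.20), Col20a1 (0.22) and Col26a1 (0.25), none of which is a main liver collagen. In Col9a3 and Col19a1 the groups did not overlap. By structure, 8 of the 9 fibril-associated genes and all 4 transmembrane genes had differences above 0, beside 56.0% of all genes. That share was 73.3% for genes with a mean of 5 to 6 and 68.4% for those of 6 to 7. Of the 9 fibril-associated genes, 6 had means below the lowest array median. The remaining genes lay between -0.03 for Col8a1 and 0.21 for Col22a1.

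The interstitial collagens of liver, taken as the 9 genes of types I, III, V, VI and XIV with values given above, often had the same arrays at the top and the bottom. Wild-type replicate 3 was the highest array in 6 of the 9, and knockout-labelled replicate 2 was the lowest in 7. The median deviation of the 9 genes from their means was -0.04, 0.14, 0.23 and -0.04 in the wild-type arrays and 0.14, -0.35, 0.10 and -0.14 in the knockout-labelled ones. Knockout-labelled replicates 2 and 4 lay below the wild-type range and replicates 1 and 3 within it.

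**Figure D4:**
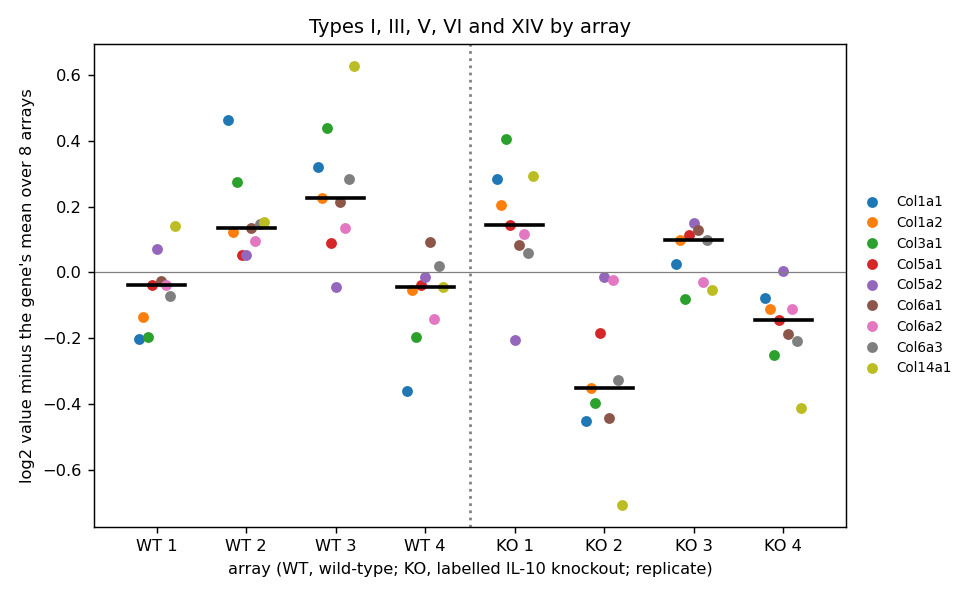
Log2 RMA value minus the gene's own mean over 8 arrays (y axis) for 9 collagen genes of types I, III, V, VI and XIV (points) in each array (x axis; WT, wild-type; KO, labelled IL-10 knockout), with black bars for the median of the 9. KO replicate 2 has the lowest median, -0.35, and WT replicate 3 the highest, 0.23.

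Markers of stellate cells stood lowest in the same array. Of 17 measured marker genes of stellate cells, 1 was called higher (Steap4, 0.89, adjusted p = 0.0251) and 1 lower (Lrat, the enzyme that stores vitamin A as ester, -1.01, adjusted p = 0.0428), with a median of -0.24 for the list. Of all genes, 1.56% were called higher and 1.59% lower. On leaving out an array their adjusted p rose to at most 0.0812 and 0.124, past the threshold. Steap4 read 11.79 to 13.13 over the 8 arrays, far above Lrat at 7.90 to 9.62. Whether the Steap4 signal came from stellate cells was not tested. The median deviation of the list was -0.08 to 0.28 in the wild-type arrays and -0.47 to 0.12 in the knockout-labelled arrays, where replicate 2 had -0.47. Reln (-0.87, adjusted p = 0.0813) and Tcf21 (-0.59, adjusted p = 0.0898) had groups apart without a call. Col14a1 correlated with the list's median at r = 0.86 over 8 arrays (exact permutation p = 0.0057, adjusted 0.0492; rho = 0.64, exact permutation p = 0.0962, adjusted 0.301), and at 0.48 without wild-type replicate 3 and knockout-labelled replicate 2, so the relation rests on those arrays. In bulk liver, fewer cells of a type and less RNA per cell cannot be told apart.

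The other cell types that could contribute collagen or dilute it were read the same way. Of 19 markers of portal fibroblasts and myofibroblasts, 0 were called in limma and 5 had an unadjusted p below 0.05, as had 21.2% of all genes. The smallest p values were those of Dpt (-0.57), Acta2 (-0.26), Cnn1 (0.20) and Gli1 (0.18), and the list's median was 0.04. Of 19 endothelial markers, 1 rose (all genes, 1.56%), and 8 had an unadjusted p below 0.05 (all genes, 21.2%), with a median of -0.05. The gene called was Lyve1 (1.05, adjusted p = 0.0066), a receptor of sinusoidal and lymphatic endothelium (at most 0.024 on leaving out an array). Whether the Lyve1 signal came from endothelium was not tested. Emcn, Tie1 and Fcgr2b differed by -0.45, -0.28 and -0.23 without a call. Of 10 bile duct markers 1 fell (all genes, 1.59%), Pkhd1 (-0.84, adjusted p = 0.0249, up to 0.0793 on leaving out an array), and Sox9 differed by 0.52, Cldn7 by 0.17 and Epcam by -0.33.

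Markers of neutrophils and macrophages rose in large part. Of 13 neutrophil markers 10 were called higher (all genes, 1.56%) and 0 lower (1.59%), with a median of 0.82, among them Ngp (2.42), Mmp8 (2.16), S100a8 (1.65) and Cxcr2 (0.86). Of 12 macrophage markers 6 were called higher and 0 lower, beside the same shares, with a median of 0.57, among them C1qb (0.64), C1qc (0.51), Csf1r (0.56) and Cd163 (1.01). On leaving out an array the adjusted p of C1qc and Csf1r rose to at most 0.0812 and 0.0721, past the threshold. The neutrophil list's median deviation was -0.55 to -0.30 in the wild-type arrays and 0.20 to 0.63 in the knockout-labelled arrays. The macrophage list's was -0.40 to -0.10 and -0.02 to 0.43. Of 9 hepatocyte markers 0 were called in limma (2 at an unadjusted p below 0.05, beside 21.2% of all genes), with a median of -0.04 and the smallest p for Serpina1a (-0.28), Ttr (-0.16), Alb (-0.12) and Apoa1 (-0.11). The part of these cells in the collagen values was not tested.

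Collagen genes that lie next to each other are given side by side, with no test of whether they share a difference. The pair Col3a1 and Col5a2 had -0.16 and -0.03, Col4a4 and Col4a3 had 0.25 and -0.06, and Col4a6 and Col4a5 had 0.23 and 0.00. Col6a2 and Col6a1 had -0.02 and -0.21, and Col9a1 and Col19a1 had 0.12 and 0.20. The run of Col6a6, Col6a5 and Col6a4 had 0.10, 0.22 and 0.07. None of the 44 genes lies within 20 Mb of Il10 in GRCm38.p6, and the nearest, Col6a3, is 40.2 Mb away.

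The genes of 5 lists that make, cut, bind, surround or induce collagen gave 6 calls among 127 measured, beside the 3.15% of all genes. Of 29 genes of collagen synthesis and cross-linking, 1 rose and 0 fell, with a median of -0.05. Colgalt1, which attaches galactose to collagen's hydroxylysine, read 9.95, 9.92, 9.98 and 9.95 in the wild-type arrays and 10.25, 10.31, 10.18 and 10.38 in the knockout-labelled ones. The groups were apart, with a difference of 0.33 (SE 0.07; limma adjusted p = 0.032, up to 0.0987 on leaving out an array). Crtap, a partner of collagen prolyl 3-hydroxylase, differed by -0.57 (adjusted p = 0.0726), Pxdn, which cross-links type IV, by -0.43 (adjusted p = 0.124) and Pcolce, an enhancer of procollagen processing, by -0.37 (adjusted p = 0.0941), none of them called.

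Collagen breakdown held the largest rise. Of 22 genes, 2 rose (all genes, 1.56%) and 0 fell (1.59%), with a median of 0.07. Mmp8, the collagenase stored in neutrophil granules and also on the neutrophil list, read 6.65, 6.11, 6.63 and 7.15 against 8.38, 8.14, 9.23 and 9.41. Every knockout-labelled array was above every wild-type array, a difference of 2.16 (SE 0.30; 4.47-fold; limma adjusted p = 0.00815, at most 0.0319 on leaving out an array). Mmp9, a gelatinase that cuts type IV and denatured collagen, read 7.24, 6.93, 6.95 and 7.31 against 7.84, 7.45, 8.26 and 8.36. The groups were apart, a difference of 0.87 (SE 0.19; adjusted p = 0.0392, up to 0.116 on leaving out an array). Ctsl, a lysosomal protease, differed by 0.49 (adjusted p = 0.055) and Mrc1, an uptake receptor, by 0.36 (adjusted p = 0.0888), both without a call.

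Of 13 collagen receptors, 2 rose (all genes, 1.56%) and 0 fell (1.59%), with a median of 0.12. Cd44, a receptor of hyaluronan that also binds collagen, differed by 0.50 (SE 0.10; adjusted p = 0.0268, up to 0.0812 on leaving out an array). Itga2, the alpha chain of a collagen-binding integrin, differed by 0.43 (SE 0.09; adjusted p = 0.0338, up to 0.101). In both genes the groups were apart. Ddr2, a receptor kinase for fibrillar collagen, and Itgb1, the integrin beta chain, differed by -0.50 and -0.25 without a call.

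Among 33 other matrix genes, 0 rose (all genes, 1.56%) and 1 fell (1.59%), with a median of -0.10. Lum encodes lumican, a proteoglycan that binds collagen fibrils, and read 7.33, 6.80, 7.47 and 6.85 against 6.61, 5.67, 6.40 and 6.00. All knockout-labelled arrays were below all wild-type arrays, a difference of -0.94 (SE 0.21; adjusted p = 0.0473, up to 0.135 on leaving out an array). Efemp1, Lama4 and Lamb3 differed by -0.57, -0.25 and 0.23 without a call.

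Of 30 genes of TGF-beta and fibrogenic signalling, which drives collagen transcription, 0 were called in limma and 6 had an unadjusted p below 0.05, a share near the 21.2% of all genes, with a median of -0.02. The smallest p values were those of Ccn2, a matricellular target (0.53, adjusted p = 0.0962), Smad7, the inhibitory Smad (0.39), Ccn1 (-0.54) and Smad3, a signal transducer (-0.37). Ccn2 differed by 0.84 in the Xist set (limma adjusted p = 0.0481, below the threshold) and by 0.22 in the Y-linked set. Smad7 differed by 0.12 and 0.66, Ccn1 by -0.89 and -0.18, and Smad3 by -0.64 and -0.10. For Ccn2, Smad7, Ccn1 and Smad3 the interaction of genotype and set had unadjusted p in limma of 0.00574, 0.013, 0.0134 and 0.00474. After adjustment none passed (0.727, 0.823, 0.823 and 0.697), so whether these differences depend on the set is not settled.

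These counts depended on single arrays. Without any 1 of the wild-type arrays or knockout-labelled replicate 4 the count was 1, Mmp8, and without replicate 2 it was 2. Without knockout-labelled replicate 1, 13 of the 127 genes were called, 8 higher and 5 lower, beside 4.69% of all genes. The genes added were Ctsl, Mrc1 and Ccn2 upward and Serpinh1, Crtap, Pxdn and Ltbp4 downward. Serpinh1, the collagen chaperone HSP47, then differed by -0.61 (limma adjusted p = 0.0316). The 44 collagen chains still gave 0 calls.

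**Figure D5:**
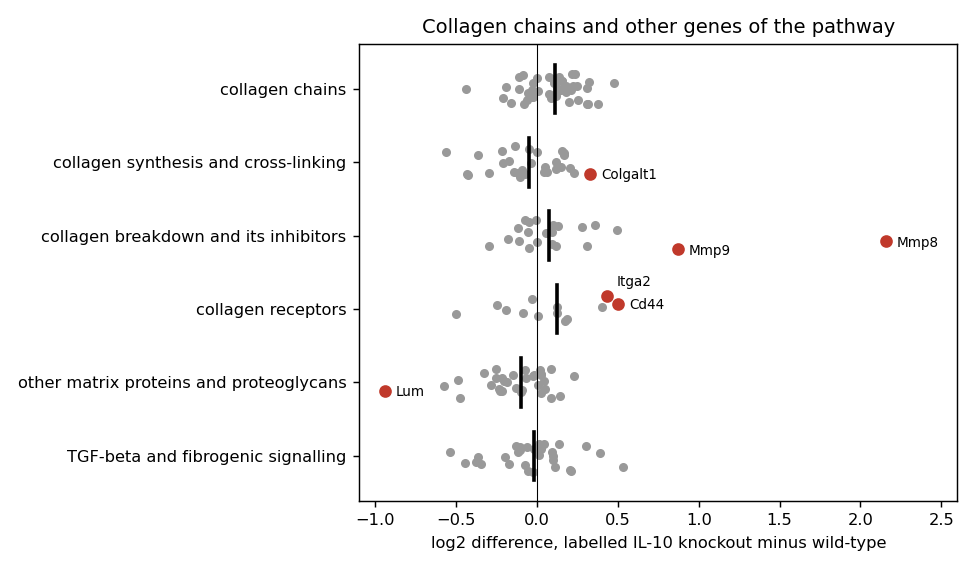
Log2 difference between arrays labelled IL-10 knockout and wild-type arrays (x axis) of the 44 collagen chain genes and of the genes in 5 other lists of the pathway (rows), 1 point per gene, jittered in height; black bars mark each list's median, and larger red points the genes called by limma. The 6 called genes, Mmp8 at 2.16 and Lum at -0.94 the farthest, all lie outside the collagen chains.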

How the data were processed

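Liver RNA of 4 wild-type mice and 4 mice labelled as IL-10 knockout was read on 1 array each. The authors deposited log2 values made by robust multi-array averaging (R 3.0.1), as the submitters' processing notes list it. The sources used here give neither the probe summary nor the genome build. The value table holds 41345 rows, of which 23521 name 1 gene in the platform annotation and 1814 name several. The array medians over rows were 6.09 to 6.22. Precision is limited by the number of arrays.

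For each gene the row with the highest mean over the 8 arrays was kept. In 3 collagen genes (Col1a2, Col5a1 and Col6a1) another row exists, and its difference had the opposite sign (0.05, 0.20 and 0.16). The test between groups was limma's (version 3.58.1 in R 4.3.3; lmFit, then eBayes), with all 8 arrays, no covariates and no filter on low values, and Benjamini-Hochberg adjustment over 22180 genes. A call is an adjusted p below 0.05. Single values were compared by exact permutation (Python 3.11.15, scipy 1.17.1), and figures used matplotlib 3.10.9. In a simulation of 4 against 4 arrays that altered 200 of 22180 genes, limma found 67.5% at 1.5-fold, 95.0% at 2-fold and 99.0% at 3-fold. The false calls were 8, 7 and 10. The simulated noise was normal and independent between genes and arrays, with each gene's own SD. Shifts that many genes share in 1 array were not simulated, so the shares found and the false calls in these data may differ.

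The members and gene lists were chosen with earlier results of these data known. Named are 13 collagen genes of liver matrix whatever their values, the 2 genes of each class with the smallest p, and up to 4 genes of each other list with the smallest p. Genes added from the comparison without knockout-labelled replicate 1 were chosen after their values were seen. The labels do not say beyond the count of mice how the samples were taken, so p-values cover no more than the spread among these samples. That spread may be technical in part, though each group holds arrays with Y-linked and with Xist signal. No array repeats another (smallest root mean square difference 0.22). The alternatives were a filter on the lowest 40% of genes, averaging a gene's rows, giving all arrays a common median, quantile normalization, trend and robust settings, array weights, a replicate block and each array left out. Added after seeing the data were the Xist and Y-linked sets alone and as a block, and the Col4a1 to Col4a2 ratio. Protein sequences were not analysed here.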

Additional observations from a re-analysis of the deposited data

Results flagged for a closer look

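In 7 of 132 groups of 4 arrays checked, over 66 genes, 1 array stood apart: its gap to the nearest of the others, as a share of the group's range, was above Dixon's critical value for 4 values. Chance alone gives about 1 in 20 such groups. Among collagen genes, Col4a4 was 5.32 in wild-type replicate 1 against 5.65 to 5.72 in the other 3 (share 0.830). Col8a2 was 6.37 in knockout-labelled replicate 3 against 5.94 to 6.00 (share 0.857). Both belong to genes whose groups did not overlap.

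Among stellate cell markers, Steap4 was 12.42 in wild-type replicate 4 against 11.79 to 11.88 (share 0.859). Lrat was 8.82 in knockout-labelled replicate 1 against 7.90 to 8.05 (share 0.840). Tcf21 was 7.47 in wild-type replicate 3 against 6.94 to 7.00 (share 0.897). Of the other markers, Cldn7 was 4.94 in wild-type replicate 2 against 5.14 in the others (share 0.980), and Cxcr2 was 7.46 in wild-type replicate 3 against 7.05 to 7.10 (share 0.898).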

How the results depend on the processing

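The absence of called collagen genes held in all but 1 of 18 alternatives. Without knockout-labelled replicate 2 the count was 1 (Col4a1), so leaving out an array gave 0 to 1 higher and 0 lower. The count over all genes, 699, was 207 to 1040 on leaving out an array, 317 in the Xist set and 171 in the Y-linked set. With a common median per array it split into 236 higher and 393 lower, against 347 and 352. The number of pathway genes called, 6 of 127, was 3 with a common median, 3 with the replicate block and 3 in the Xist set. It was 1 in the Y-linked set and 1 to 13 on leaving out an array. These counts take in any pathway gene, not only the 6. In the Xist set the genes called were Mmp8, Mmp9 and Ccn2, and Ccn2 was not among the 6.

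The fibrillar median of -0.03 was 0.0814 with the mean of a gene's rows and 0.11 in the Xist set, and -0.0787 to 0.0311 on leaving out an array. It turned above 0 when the left-out array was replicate 2 of the wild-type group or replicate 1, 2 or 4 of the other, so its sign is not settled. With a common median the basement membrane and other medians fell from 0.09 and 0.12 to 0.0404 and 0.0714, and the latter was 0.0546 with quantile normalization. Type IV alone gave 0.21 in place of the basement membrane median of 0.09. Of 18 named collagen genes, 12 kept their direction in every alternative. The other 6 had differences near 0. Col5a1 turned to 0.0814 with the mean of its rows, Col5a2 to 0.11 in the Xist set, Col18a1 to 0.0043 with quantile normalization and Col6a2 to 0.0194 in the Y-linked set. On leaving out an array the range was -0.25 to 0.0266 for Col1a1, -0.16 to 0.0239 for Col1a2, -0.0879 to 0.0211 for Col5a1, -0.0872 to 0.0311 for Col5a2, -0.11 to 0.0015 for Col18a1 and -0.0747 to 0.0175 for Col6a2. The cause of these changes was not tested.

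Same-numbered arrays had correlations of 0.27, 0.04, -0.10 and 0.29 between their deviations from the group means. Differently numbered arrays were not set beside them, so these values cannot show whether the numbers pair the samples. With the replicate block 497 genes and 0 collagen genes were called, and the lowest collagen adjusted p in limma was 0.125. At 4 arrays per group the simulated comparison missed part of the 1.5-fold and 2-fold changes, and the intervals of 4 collagen genes reach past 1.5-fold.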
